A study of Mus musculus with 12 samples.

Results

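Promoters that carry acetylation of histone H3 at lysine 27 (H3K27ac) and no trimethylation of the same lysine (H3K27me3) were examined in mouse mesenchymal stem cells (MSCs), multipotent cells of the stroma. A region was taken as a member when it was an autosomal H3K27ac region shorter than 50 kb, came within 1 kb of a protein-coding transcription start site (TSS), and shared no base with any H3K27me3 region. Of the 31617 H3K27ac regions, 6523 (20.6%) met the rule, and they covered 90.3 Mb and the promoters of 7963 genes. The rule used the position and the length of the regions and the presence of H3K27me3, and not the values of the libraries. The other H3K27ac regions were 18611 distal regions with H3K27ac only, 3253 distal regions with both marks, 1599 promoter regions with both marks, 1118 domains of 50 kb or more and 513 regions on the sex chromosomes.

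The marks were measured by CUT&RUN, in which a nuclease is tethered to the antibody-bound mark inside opened cells and the fragments it frees are sequenced. The study held 12 libraries, namely 3 of each mark from young mice aged 3 to 5 months and 3 of each mark from old mice aged 18 to 22 months. All cells were cultured at 2% oxygen, and the cells of a sample were shared between the tubes of the antibodies. The labels named no strain, tissue of origin, genotype or batch and did not say whether the replicates came from separate animals, so p-values measure only the spread between these samples, which may be technical. The H3K27ac libraries held 2750953 to 5541429 mapped reads, the shallowest being old replicate 2, and 9.50% to 12.01% of the reads of a library fell in the 6523 promoter regions. The median promoter region held 29 reads in old replicate 2 and 69 in young replicate 1.

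H3K27ac is placed on the nucleosomes that flank active promoters by the acetyltransferases p300 and CBP, and it neutralises the positive charge of the lysine. H3K27me3 is written by the Polycomb repressive complex PRC2 and marks promoters that are kept silent. Because a lysine carries either an acetyl or a methyl group, the marks exclude each other on 1 histone tail, and a promoter with H3K27ac alone is the usual state of a gene in use. In stromal cells such promoters are known to belong to housekeeping genes and to genes of the extracellular matrix and the cytoskeleton.

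The DNA at these promoters was rich in CpG dinucleotides. RefSeq promoter windows of the GRCm38.p6 build, from 250 bases before to 50 bases after the most upstream start of a gene, were matched by symbol for 15680 autosomal protein-coding genes, and 5984 of them lay at a member. A window with a member within 1 kb of its start was counted there even where another class or H3K27me3 also came within 1 kb. A window was counted as CpG-rich when its observed to expected CpG ratio was at least 0.6 and its GC content at least 50%. By this measure 72.2% of the windows at members were CpG-rich, against 69.0% at promoters with both marks, 29.7% at promoters with H3K27me3 only and 4.87% at promoters with neither mark. Promoters in H3K27ac domains of 50 kb or more, at 77.4%, were the class most often CpG-rich. The share over all windows was 48.6%. The median window at a member held 21 CpG, while the median window with neither mark held 2.

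A set of 9 short motifs was searched on both strands of the same windows. The ETS core CCGGAAG, bound by GABP and related factors, was found in 21.0% of member windows, in 14.0% of windows with both marks, in 3.98% of windows with H3K27me3 only and in 12.5% of all windows. Windows in domains of 50 kb or more were close to the members, with the ETS core in 20.9%, the NRF1 letters in 6.01% and the TATA box in 6.30%. Among CpG-rich windows alone the ETS core was found in 24.4% of those at members, 4.80% of those with H3K27me3 only and 20.4% of all. The YY1 motif AAGATGGC was found in 5.33% of member windows, 1.10% of H3K27me3-only windows and 3.24% of all windows. For NRF1, a regulator of nuclear genes for mitochondrial proteins, the letters GCGCATGC were found in 6.40%, 1.63% and 3.78% in the same order. Among CpG-rich windows alone the YY1 shares were 6.48%, 1.09% and 5.10%, and the NRF1 shares 7.71%, 3.45% and 6.62%. The contrasts of members with all windows were thus smaller, in proportion, among CpG-rich windows. The GC box GGGCGG, bound by Sp factors, was in 65.9% of member windows and 48.6% of all windows, but among CpG-rich windows its share was 76.2% at members and 77.6% at promoters with H3K27me3 only.

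The TATA box was less frequent at members than over all windows. The letters TATAAA were found in 6.28% of member windows, 14.1% of H3K27me3-only windows, 29.8% of windows with neither mark and 12.9% of all windows. The AP-1 motif TGANTCA was in 4.83% of member windows and 7.07% of all windows. The CCAAT box CCAAT, bound by NF-Y, was in 40.4% of member windows and 38.5% of all windows, a small difference. The cyclic AMP element TGACGTCA was in 3.59% of member windows and 2.46% of all windows, and the E-box CACGTG in 10.1% and 8.13%. Among CpG-rich windows alone these contrasts were small, with TATAAA in 4.40% of those at members and 4.72% of all, TGANTCA in 3.29% and 3.24%, and CACGTG in 11.4% and 11.7%. These shares describe letters in a window and carry no test, and a match is not evidence of binding. The motifs of this set were counted separately even where their bases overlapped.

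**Figure D1:**
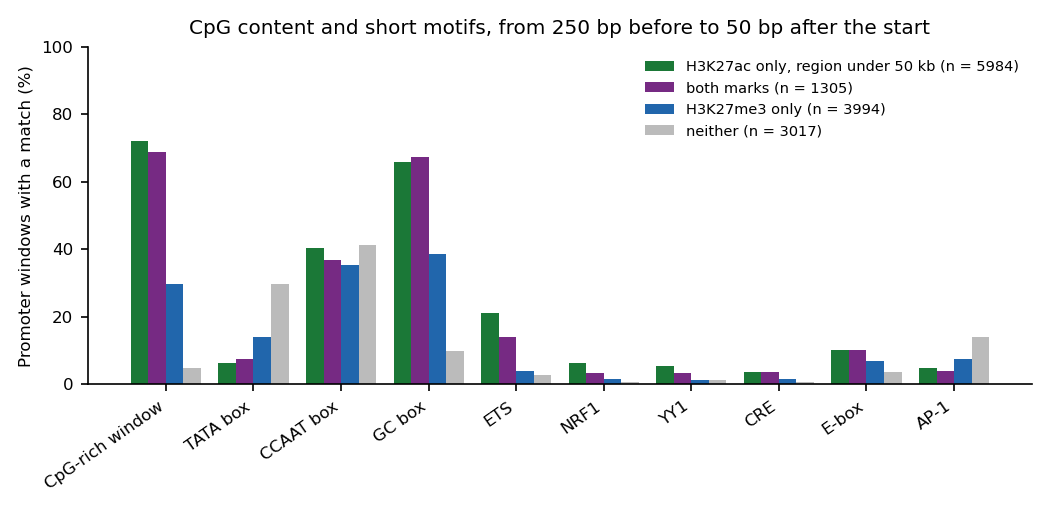
Share of promoter windows (%, vertical axis) that were CpG-rich or held each motif on either strand, for promoters with H3K27ac only, both marks, H3K27me3 only or neither mark; each bar is a share of the number of windows given in the key. The H3K27ac-only windows were CpG-rich in 72.2% and held the ETS core in 21.0%, against 29.7% and 3.98% with H3K27me3 only.

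Examples of these motifs appear in promoters of housekeeping, metabolic, lysosomal and inducible genes among the members, which do not stand for the class. The 150 bases before the RefSeq start are given for 5 of them, 5′ to 3′, with every match to a searched motif in capitals, and none of the printed bases lies in an annotated exon. Rplp0 (chr5:115559317-115559466, plus strand) encodes a protein of the large ribosomal subunit and shows CCAAT boxes. Surf6 (chr2:26902888-26903037, minus strand), a nucleolar gene in the same H3K27ac region as the ribosomal gene Rpl7a, shows ETS cores on the reverse strand. Lamp1 (chr8:13159011-13159160, plus strand), a lysosomal membrane protein, carries repeated E-boxes of the kind bound by TFEB. Acly (chr11:100528001-100528150, minus strand), the enzyme that makes acetyl-CoA from cytosolic citrate, shows GC boxes. Fos (chr12:85473740-85473889, plus strand), an immediate early gene, carries a TATA box close to its start.
Rplp0: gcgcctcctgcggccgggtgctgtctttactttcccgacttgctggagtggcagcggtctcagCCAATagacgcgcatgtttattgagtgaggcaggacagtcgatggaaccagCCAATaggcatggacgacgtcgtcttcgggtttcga
Surf6: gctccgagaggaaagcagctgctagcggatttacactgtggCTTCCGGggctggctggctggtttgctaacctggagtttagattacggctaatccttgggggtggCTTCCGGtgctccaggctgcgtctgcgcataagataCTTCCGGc
Lamp1: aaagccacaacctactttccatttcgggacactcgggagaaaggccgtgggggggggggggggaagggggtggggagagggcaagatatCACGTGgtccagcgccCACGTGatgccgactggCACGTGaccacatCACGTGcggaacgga
Acly: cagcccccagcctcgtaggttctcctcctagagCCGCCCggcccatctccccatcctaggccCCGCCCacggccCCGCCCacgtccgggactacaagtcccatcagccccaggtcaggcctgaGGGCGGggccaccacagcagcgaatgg
Fos: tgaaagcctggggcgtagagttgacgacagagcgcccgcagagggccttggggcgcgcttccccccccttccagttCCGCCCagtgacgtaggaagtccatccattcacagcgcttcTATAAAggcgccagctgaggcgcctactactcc

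A further 4 promoters are shown because the age comparison or the level of signal singles them out. Mfge8 (chr7:79149061-79149210, minus strand) and Sdc3 (chr4:130792387-130792536, plus strand) were among the members with more signal in old cells, Calhm5 (chr10:34096520-34096669, minus strand) was among those with less, and Ifnb1 (chr4:88522795-88522944, minus strand) had one of the lowest densities. In these 150 bases, Mfge8 held 11 CpG and Sdc3 held 24, both with GC boxes. Calhm5 held 2 CpG and none of the 9 motifs. Ifnb1, the gene of interferon beta, held 1 CpG and a TATA box.
Mfge8: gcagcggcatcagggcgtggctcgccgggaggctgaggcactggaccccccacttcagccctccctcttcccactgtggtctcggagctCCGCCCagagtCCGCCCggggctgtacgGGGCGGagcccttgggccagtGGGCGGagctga
Sdc3: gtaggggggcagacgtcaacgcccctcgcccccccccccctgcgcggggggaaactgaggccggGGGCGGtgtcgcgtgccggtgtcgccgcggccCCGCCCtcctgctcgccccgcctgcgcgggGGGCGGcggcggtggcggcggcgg
Calhm5: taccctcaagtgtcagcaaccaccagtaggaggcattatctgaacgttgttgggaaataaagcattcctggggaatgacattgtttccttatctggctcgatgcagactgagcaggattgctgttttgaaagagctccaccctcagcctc
Ifnb1: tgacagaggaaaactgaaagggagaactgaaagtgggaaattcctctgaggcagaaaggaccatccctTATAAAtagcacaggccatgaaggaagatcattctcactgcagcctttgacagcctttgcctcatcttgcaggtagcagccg

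Within the limit of 50 kb, the promoter regions differed far more in breadth than in density. Their median length was 9.5 kb (quartiles 4.0 and 20.0 kb), against 5.0 kb for promoter regions with both marks and 3.5 kb for distal regions with H3K27ac only. A longer region comes within 1 kb of a TSS more readily, so the contrast in length with distal regions is partly built into the rule. The deposited signal is a sum over the region that is not divided by its length, so levels of different regions are compared here as density in RPKM, the reads per kb of region scaled to the mapped reads of each library, averaged over the 6 libraries. The median density was 1.20 in members, 1.09 in promoter regions with both marks, 1.07 in distal H3K27ac-only regions and 1.14 in domains of 50 kb or more. From the 5th to the 95th percentile, length ran from 2.0 to 39.5 kb, a range of 19.8-fold, while density ran from 0.842 to 1.85, a range of 2.19-fold.

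**Figure D2:**
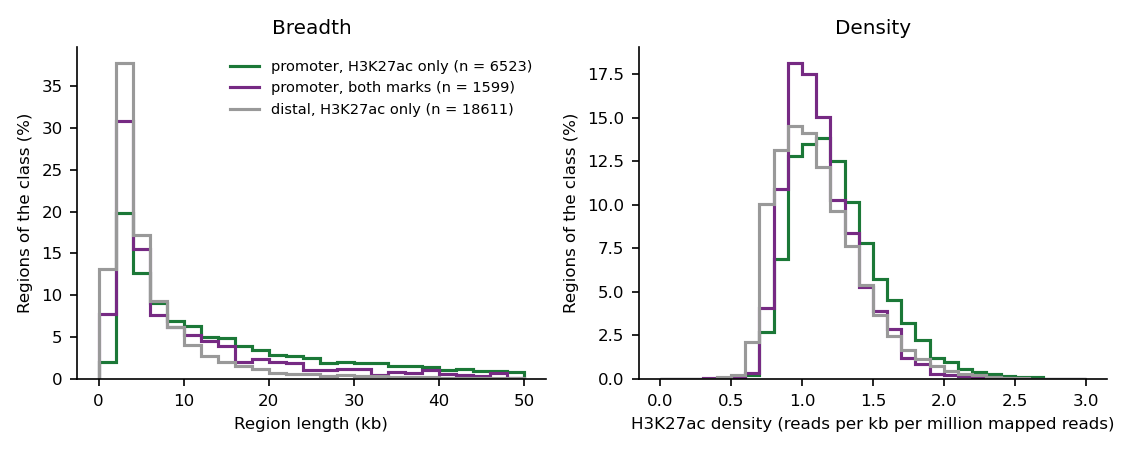
Distribution of region length (kb, left) and H3K27ac density (RPKM, right) as a share of the regions of each class (%), in steps of 2 kb and of 0.1. The H3K27ac-only promoter regions had a median length of 9.5 kb against 3.5 kb for distal regions, while the densities of the 3 classes overlapped, with medians of 1.20, 1.09 and 1.07.

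Narrow promoter regions were the more concentrated and the more CpG-rich ones. Ordered by length and divided into 4 groups of equal size, the narrowest regions (0.5 to 4.0 kb) had a median density of 1.34 and a CpG ratio of 0.461 over the whole region, and the broadest (20.0 to 49.5 kb) had 1.11 and 0.267. Across the 6523 regions the Spearman correlation of length with density was -0.31 and that of length with the CpG ratio was -0.53. These are descriptions across regions, which share the libraries, and a longer region necessarily holds more DNA beyond the CpG-rich start. Density is itself divided by length, so length and density are not independent measures.

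The regions reached mainly downstream of the TSS. Of the members, 6379 (97.8%) held a TSS inside the region and 144 lay within 1 kb of one. In the 5068 regions that held the TSS of 1 gene on 1 strand, the region extended a median of 1.47 kb upstream and 5.52 kb downstream of the most upstream TSS, and 4218 (83.2%) reached further downstream than upstream. Measuring from the most upstream TSS favours the downstream side where a gene has several starts. The end of the gene was not used, so downstream reach need not lie in the gene. For example, 4.56% of the Cebpb region lay in protein-coding transcripts, against 100% of the Angptl2 region. The asymmetry was present in all 4 groups of breadth. The narrowest regions reached 0.964 kb upstream and 1.65 kb downstream, and the broadest 2.22 kb upstream and 23.6 kb downstream.

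**Figure D3:**
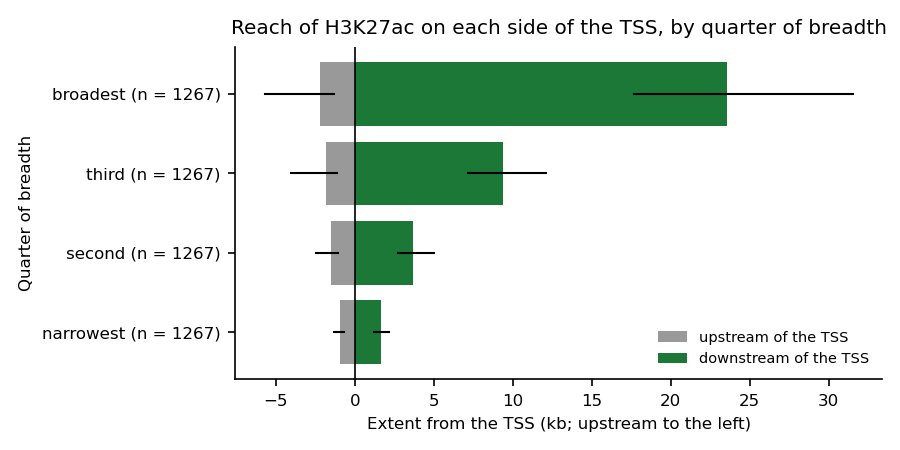
Median reach of the H3K27ac region from the most upstream TSS (kb, horizontal axis, upstream to the left of 0), for 5068 single-gene members in 4 groups of breadth; black lines run from the lower to the upper quartile. Upstream reach was 0.964 to 2.22 kb, while downstream reach went from 1.65 kb in the narrowest group to 23.6 kb in the broadest.

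Most regions belonged to 1 gene. In 5211 (79.9%) the window of 1 gene was touched, in 1043 those of a pair of genes, and in 269 those of 3 or more. The median length was 8.0 kb, 14.0 kb and 29.0 kb in the same order. In 1023 regions (15.7%) genes on both strands were touched. The most crowded region, chr19:6045001-6093000, was 48.0 kb long and took in 10 genes, among them the ribosomal gene Fau and the cohesin regulator Cdca5. A region over several genes is a single measurement for all of them. Between chromosomes, the share of protein-coding genes with a member at the promoter ran from 32.4% on chromosome 14 to 45.4% on chromosome 13.

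Many members lay close to Polycomb chromatin although they shared no base with it. The nearest H3K27me3 region was a median of 8.0 kb away, and it was within 5 kb for 2791 members (42.8%) and within 1 kb for 1367 (21.0%). In 500 members the H3K27me3 region began at the next base. For distal regions with H3K27ac only, the median distance was 21.5 kb and 24.9% lay within 5 kb. Members within 5 kb of H3K27me3 were shorter, with a median length of 7.5 kb against 11.0 kb, and had about the same density, with medians of 1.21 and 1.19. The boundary of a region follows the caller's steps of 0.5 kb.

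Of the 5 densest members, 4 are described here, and 3 of these were narrow. Gpx7, a peroxidase of the endoplasmic reticulum, had the highest density, 2.97, over 3.5 kb (chr4:108404501-108408000). Rnase10 followed at 2.83 (chr14:51006001-51010500, 4.5 kb). Akr1c14, an aldo-keto reductase, stood at 2.68 (chr13:4058001-4061500, 3.5 kb) and Arhgef17, a guanine nucleotide exchange factor, at 2.65 (chr7:100902501-100935000, 32.5 kb). Each of these 4 regions held the TSS, exons with UTR sequence and introns.

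The lowest densities were those of Jak3 (0.331, chr8:71673001-71675500), Apobec3 (0.420, chr15:79896001-79896500) and Ifnb1 (0.430, chr4:88522001-88523500). The Jak3 region held no exon or intron of a protein-coding transcript, that of Apobec3 lay in an intron, and that of Ifnb1 held its TSS. All 3 belong to immune genes, and they rested on very few reads. Apobec3 had 0 reads in the young libraries and 4, 0 and 2 in old replicates 1 to 3. These 3 regions were among the 6 members that the deposited region names assigned to old cells alone, while the other 6517 were assigned to both ages. At the length limit, the 13 members of 49.5 kb included the regions of Rplp0 (density 1.07) and Psmd14 (0.830), and the 17 promoter regions of 50.0 kb just outside it included those of Pdcd6ip (1.05) and Smc3 (0.792).

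Lists of genes of growth and basic metabolism had a member at most of their promoters. Of 20696 autosomal protein-coding genes, 38.5% had a member at the promoter, 8.43% a promoter region with both marks, 8.37% a domain of 50 kb or more, 25.6% H3K27me3 only and 19.1% neither mark. Each gene was counted once, in the first of these classes, in this order, that came within 1 kb of any of its starts. A gene counted with a member may therefore have another class or H3K27me3 at another start or nearby. A member stood at 26 of 29 genes of DNA replication and the cell cycle (89.7%), 27 of 32 proteasome subunits (84.4%), 57 of 71 nuclear genes of oxidative phosphorylation (80.3%) and 60 of 75 cytosolic ribosomal proteins (80.0%). It also stood at 22 of 28 genes of citrate export and acetyl-CoA supply (78.6%), 26 of 37 of lysosome and autophagy (70.3%), 14 of 20 aminoacyl-tRNA synthetases (70.0%) and 15 of 22 AP-1 and immediate early factors (68.2%). In the first 4 of these lists the genes without a member lay in domains or under both marks, apart from the mitotic kinase Bub1, which had neither mark. No gene of the proteasome, oxidative phosphorylation and ribosomal lists had an H3K27me3-only promoter.

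Lists of chromatin regulators and of the state of the cell ranged from 51.6% to 73.3% with a member. A member stood at 11 of 15 senescence genes and cell cycle inhibitors, 18 of 27 Polycomb genes and H3K27 demethylases, 14 of 22 circadian clock genes, 19 of 31 histone acetyltransferases and deacetylases and 16 of 31 hypoxia response genes. Ezh2, the methyltransferase of PRC2, had a member of 8.5 kb (chr6:47588001-47596500), whereas Kdm6b, which removes H3K27me3, and Crebbp, the CBP acetyltransferase, had both marks and Ep300, the gene of p300, lay in a domain. Among clock genes Per1 had a member of 16.5 kb, Arntl had both marks and Nr1d1 lay in a domain. In the hypoxia list 11 genes lay in domains, among them Hif1a, Gapdh and Pkm, and the members included Ldha, Hk2 and the glucose transporter Slc2a1.

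Many genes of matrix and cytoskeleton lay in regions too broad for the class. Of 30 fibrillar matrix genes 17 lay in domains and 9 had a member, and of 29 actin and contractility genes 14 lay in domains and 13 had a member. Their members were broad as well, with median lengths of 34.5 kb and 29.5 kb against 11.5 kb over all genes with a member, and the matrix members had a median density of 1.69 against 1.20. Col1a2, a chain of type I collagen, had a member of 46.0 kb (chr6:4500001-4546000) with a density of 2.00 that abutted an H3K27me3 region, while Col1a1, the other chain, lay in a domain.

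The labelled cell type was compared with marker lists. Of 19 MSC surface markers 8 had a member (42.1%), a share near the 38.5% of all autosomal protein-coding genes. They included Pdgfra (26.5 kb, density 1.34), Ly6a, Thy1 and Eng (24.5 kb, 1.05). Of the other markers 4 lay in domains, 6 had both marks and Nes had H3K27me3 only. Promoters of other cell types rarely carried H3K27ac alone. All 14 epithelial markers and 16 of 17 neuronal markers had H3K27me3 only, as did 12 of 14 endothelial, 12 of 16 skeletal muscle and 16 of 25 blood and macrophage markers. Ptprc, which defines blood cells, had neither mark. Members stood at 4 blood and macrophage markers (Cd68, Csf1r, Cd14 and Fcer1g), at Pecam1 among endothelial markers, at Tnnt3, Tnni2 and Mylpf among muscle markers and at 2 of 18 germline markers, Tex14 and Dnd1. Of these, the regions of Cd68 (44.5 kb) and Dnd1 (42.0 kb) took in 5 genes each. The region of Fcer1g also touched more than 1 gene, and the promoters of Cd2bp2 and Tbc1d10b lay close to that of Mylpf. At these markers H3K27ac cannot be assigned to the marker. Among lineage lists, a member stood at 4 of 10 adipogenic genes (Pparg, Cebpb, Cebpd and Fabp4). A member also stood at 6 of 14 chondrogenic genes and 1 of 13 osteogenic genes, Spp1. Of the other osteogenic genes 3 lay in domains, 2 had both marks, 5 had H3K27me3 only and 2 had neither mark. Of the other chondrogenic genes 5 had both marks and 3 had H3K27me3 only. Of the other adipogenic genes 1 lay in a domain, 2 had both marks and 3 had H3K27me3 only. Of the secreted inflammatory factors 6 of 24 had a member and 9 had H3K27me3 only.

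**Figure D4:**
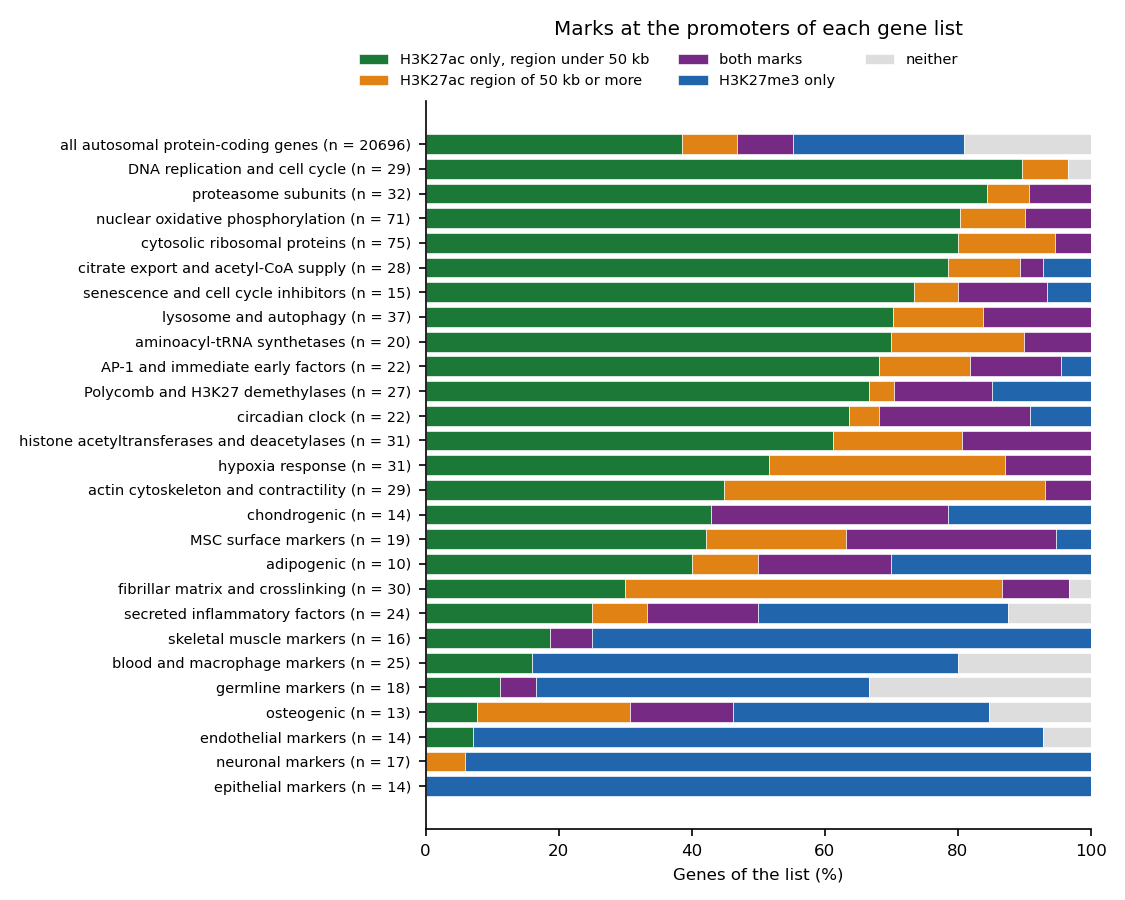
Share of the genes of each list (%, horizontal axis) whose promoter had H3K27ac only in a region under 50 kb, an H3K27ac region of 50 kb or more, both marks, H3K27me3 only or neither mark, with the number of genes found. Each gene was counted once, H3K27ac-only regions taking precedence over both marks, then 50 kb or more, then H3K27me3 only, at any of its starts. H3K27ac-only promoters made up 38.5% of all genes, 80.0% of ribosomal protein genes and 0.00% of neuronal and epithelial markers.

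Motifs differed between these groups of members. The ETS core was found in 40.5% of 42 windows of ribosomal proteins, 45.5% of 22 windows of proteasome subunits and 28.3% of 46 windows of oxidative phosphorylation, beside 21.0% over all members. NRF1 letters were in 15.2% of the oxidative phosphorylation windows, beside 6.40% over all members. Both shares were higher still in 14 windows of histone acetyltransferases and deacetylases, with the ETS core in 57.1% and NRF1 letters in 21.4%. CCAAT boxes were in 85.0% of 20 windows of DNA replication and cell cycle genes and in 83.3% of 12 clock gene windows, beside 40.4%. The E-box was in 47.1% of 17 windows of lysosome and autophagy genes, beside 10.1%. In 16 hypoxia response windows, GC boxes were found in 93.8% and the ETS core in 0.00%. The lists are small and no test was made.

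The study asked what ageing does to chromatin in MSCs. At the H3K27ac-only promoters no region passed the test. In limma on log2 scaled signal, fitted over all 31617 H3K27ac regions with adjustment by the method of Benjamini and Hochberg, 26 regions (0.0822%) passed an adjusted p of 0.05, and 0 of the 6523 promoter regions were among them. The smallest adjusted p of a member was 0.0555. At an unadjusted p under 0.05 there were 454 members (6.96%), against 9.6% of all regions. DESeq2 on the recovered whole reads also called 0 members, with 0.019% of all regions called. At an unadjusted DESeq2 p under 0.05 there were 139 members (2.13%), against 3.11% of all regions. The quasi-likelihood test of edgeR called 7 members, 4 higher and 3 lower in old cells, with 0.304% of all regions called. These 7 lay at Angptl2, Foxs1, Mfge8, Plxdc2, Rem1, Slc35e3 and Zfhx4, of which Foxs1 was chosen for naming after its values were seen.

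Members also changed little in size. Their median absolute log2 difference between the ages was 0.13, against 0.23 in distal H3K27ac-only regions and 0.19 in promoter regions with both marks, and they held more reads, with a median of 50.5 per library against 18.5 and 25.8. Within the members the same measure went from 0.21 in the narrowest group, with a median of 16.8 reads, to 0.09 in the broadest, with 153 reads. The median log2 fold change of old over young cells was 0.02, and 54.1% of members had a higher value in old cells. On the signal as deposited, without scaling between libraries, the median of all regions moved to -0.12 and only 30.5% of members were higher in old cells, against 33.0% of all regions. No direction of the class as a whole can therefore be given.

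In 488 members (7.48%) every old library lay above every young library, and in 369 (5.66%) every old library lay below. Over all H3K27ac regions the shares were 7.09% and 7.42%, so the members stood near the background. The members higher in old cells had a median length of 15.5 kb and those lower a median of 7.5 kb. Their median GC contents were 48.1% and 45.4%. Of the 1631 members with the highest GC content (50.2% and above) 156 were higher and 48 lower in old cells. Of the 1631 with the lowest (up to 43.7%) 86 were higher and 131 lower. The same counts over all H3K27ac regions are not given here, so this lean cannot be taken as particular to the members.

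The difference between the ages by GC content was tested on whole samples. The median log2 signal of the GC-rich members minus that of the GC-poor members, divided at a GC content of 46.7%, was -0.62, -0.57 and -0.62 in young replicates 1 to 3 and -0.57, -0.55 and -0.51 in old replicates 1 to 3. The old libraries all lay above the young ones, although old replicate 1 and young replicate 2 were 0.00 apart at 2 decimals. The difference of 0.06 had a two-sided exact permutation p of 0.10, the smallest that 3 samples against 3 allow, and 0.40 after adjustment over the 4 such tests. GC preference also varied between libraries of 1 age. The correlation of a library's deviation from the mean with GC content over the 6523 members was -0.20, 0.04 and -0.10 in the young libraries and -0.01, 0.07 and 0.17 in the old ones, and the part of library GC preference in the result was not tested.

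The level of the class was set beside that of other H3K27ac regions in each library. The median log2 signal of members exceeded that of distal H3K27ac-only regions by 1.42, 1.45 and 1.28 in the young libraries and by 1.33, 1.34 and 1.44 in the old ones, and the groups overlapped. The difference between the ages was -0.01 (exact permutation p = 0.90, adjusted p = 0.90). Members exceeded promoter regions with both marks by 0.95, 0.90 and 0.91 in young and 0.94, 0.92 and 0.88 in old libraries, a difference of -0.01 (exact permutation p = 0.90, adjusted p = 0.90). With gene starts in place of transcript starts this difference was -0.04 (exact permutation p = 0.10, the smallest the design allows). Members took 29.0%, 29.2% and 28.1% of the signal of all H3K27ac regions in young libraries and 28.5%, 29.0% and 29.3% in old ones, a difference of 0.13 percentage points (exact permutation p = 0.70, adjusted p = 0.90). These medians are sums over regions of unequal length and describe the same regions in every library. A p that misses the threshold does not show that the ages were alike.

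Among the members nearest to the threshold with more signal in old cells, Mfge8 had the smallest p. Signal is given here as scaled signal, the deposited signal (RPKM for a fixed length of 0.5 kb) after scaling between libraries, and no region in this and the next paragraphs passed the test. Mfge8 (chr7:79145501-79150000) encodes a secreted protein that bridges dying cells to phagocytes. Its scaled signal was 8.82, 6.92 and 9.87 in young replicates 1 to 3 and 13.2, 28.3 and 18.3 in old replicates 1 to 3. The lowest old library stood above the highest young one, and the fold was 2.34 (log2 fold change 1.12 ± 0.25 SE, limma adjusted p = 0.0555). The region rested on 12 to 36 reads per library.

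Rem1 (chr2:152626001-152640000), a small GTPase that inhibits calcium channels, had 23.8, 32.3 and 31.9 in young libraries and 42.3, 52.7 and 43.3 in old ones, with no overlap (0.65 ± 0.15, adjusted p = 0.0752 in limma). Angptl2 (chr2:33213501-33250000), a secreted angiopoietin-like glycoprotein, had 84.6, 99.2 and 105.9 in young and 120.8, 155.7 and 115.7 in old libraries (0.43 ± 0.11, limma adjusted p = 0.105). Sdc3, a heparan sulphate proteoglycan of the cell surface (chr4:130790001-130828500), went from a mean of 85.5 ± 3.45 (SD, n = 3) to 111.0 ± 5.28. The region shared by Pfkfb4, which makes the glycolytic activator fructose 2,6-bisphosphate, and Ucn2 (chr9:108987001-109003500) went from 32.4 ± 4.42 to 47.7 ± 3.89. Ninl, a centrosomal protein, and Lin9, a subunit of the MuvB complex that controls cell cycle genes, had folds of 1.40 and 1.53.

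Csrp1, a LIM domain protein of the actin cytoskeleton, had the highest fold of the 16 regions nearest to the threshold but very few reads. Its member (chr1:135717001-135720000, 3.0 kb) lay within 1 kb of a TSS without holding a protein-coding transcript. It held 2, 2 and 4 reads in young and 14, 5 and 9 reads in old libraries. The ratio of reads, allowing for depth and scaling, was 4.78 with an exact 95% interval of 2.12 to 12.1 that covers counting error only. The deposited region names assigned this region to old cells alone, and it was chosen for no overlap and a small p. The interval takes no account of that choice, so it is not evidence of a difference between the ages.

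Among the members nearest to the threshold with less signal in old cells, Plxdc2 had the smallest p. Plxdc2 (chr2:16354501-16368000), a transmembrane protein with a plexin domain, had 54.2, 47.3 and 44.7 in young and 33.1, 30.7 and 32.1 in old libraries. All old libraries lay below the young ones, with a log2 fold change of -0.60 ± 0.14 (SE, limma adjusted p = 0.0749). Slc35e3 (chr10:117738501-117748500), a member of a family of nucleotide sugar transporters, had 35.9, 31.7 and 26.3 in young and 19.9, 18.9 and 18.3 in old libraries (-0.69 ± 0.17, limma adjusted p = 0.111).

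Zfhx4 (chr3:5203001-5250500), a homeobox and zinc finger factor, was the broadest of these regions at 47.5 kb and had 208.1, 161.0 and 188.8 in young and 145.9, 143.9 and 149.3 in old libraries (-0.34 ± 0.09, limma adjusted p = 0.125). Mef2c (chr13:83522001-83533000), a MADS box factor of muscle, bone and vessel development, went from 23.1 ± 6.0 (SD, n = 3) to 13.0 ± 2.87. Btbd3 (chr2:138274001-138284500) went from 38.4 ± 5.36 to 24.5 ± 3.29, and Calhm5 (chr10:34085501-34107500), of a family of calcium-modulated channels, from 84.6 ± 4.33 to 63.8 ± 4.13. 1500015O10Rik (chr1:43729001-43734000) went from 17.6 ± 2.18 to 9.57 ± 0.863 and Rftn2 (chr1:55219501-55232500), a lipid raft protein, from 48.0 ± 3.22 to 33.6 ± 5.35. The 16 regions of both directions had adjusted p-values from 0.0555 to 0.163.

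**Figure D5:**
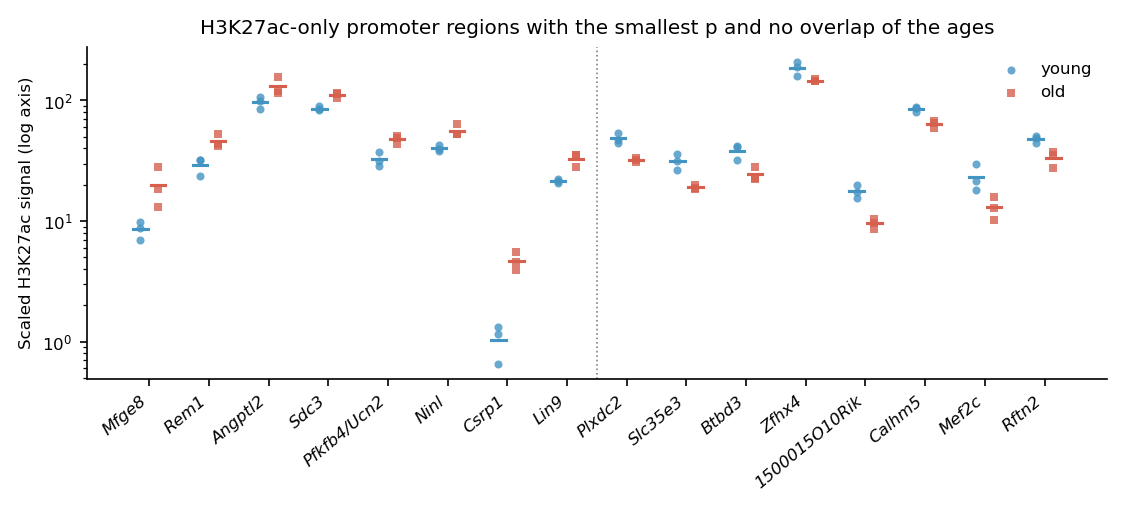
Scaled H3K27ac signal (log axis) of the 8 members with the smallest p and more signal in old cells (left of the dotted line) and the 8 with less (right); circles are young and squares old libraries, and bars are means of 3. The ages do not overlap in any of the 16 regions because that was how they were chosen, and no region passed the adjusted threshold.

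Genes were also listed for their function. A member stood at the promoter of 24 of 37 such genes, 8 others lay in domains and 5 under both marks. The log2 fold changes of these 24 members ran from -0.22 at Myc to 0.37 at Ndufs1, and the smallest adjusted p was 0.339, at Actb. The ages did not overlap in 2 of the 24, beside 13.1% of all members and 14.5% of all H3K27ac regions, so the count is no result about these genes. Actb, cytoplasmic beta actin, had 86.2, 91.7 and 87.5 in young and 103.2, 102.2 and 113.6 in old libraries, and Ezh2 had 18.3, 19.0 and 14.1 in young and 19.9, 22.0 and 19.9 in old libraries. In both the old libraries lay above the young ones.

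The other 22 overlapped. Among housekeeping promoters Rplp0 had 105.3 ± 8.67 in young and 105.6 ± 8.63 in old libraries (SD, n = 3), Rpl13a 37.7 ± 1.90 and 38.9 ± 7.45, and Mcm2, a subunit of the replicative helicase, 31.8 ± 3.34 and 33.3 ± 4.66. Among inducible factors Fos had 17.9 ± 2.69 and 19.1 ± 2.50, Jun 27.7 ± 4.64 and 26.9 ± 3.46 and Junb 98.4 ± 7.37 and 103.2 ± 12.7. Col1a2 had 179.4 ± 11.0 and 186.5 ± 14.6, and Vim, the intermediate filament of mesenchymal cells, 78.9 ± 6.46 and 76.0 ± 6.32. For citrate metabolism, Acly had 47.1 ± 5.35 and 48.0 ± 5.84 and Cs, citrate synthase, 75.4 ± 5.59 and 82.9 ± 5.92. Cdkn1a, the cell cycle inhibitor p21, had 19.7 ± 1.02 and 19.1 ± 2.97, Trp53 had 47.7 ± 4.70 and 53.1 ± 3.61, and Pdgfra, a receptor used to recognise these cells, had 70.0 ± 4.86 and 70.3 ± 13.1.

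By gene group, 0 members of any of the 26 lists passed the test in limma or in edgeR. At an unadjusted p under 0.05 there were 524 (6.58%) of the 7963 genes with a member, 302 higher and 222 lower in old cells. In the actin and contractility list 4 of 13 met this level, all higher in old cells, namely Actb, Tpm1, the focal adhesion protein Zyx and Ankrd1, a target of mechanical signalling. In the oxidative phosphorylation list 4 of 57 met it, all lower, among them Ndufa6, Ndufb6 and Atp5g2. In the DNA replication and cell cycle list 3 of 26 met it, all higher, namely Ccne1, Ccnd1 and Gins2. None of the 60 ribosomal, 11 senescence and 18 Polycomb members met it. In the chondrogenic list 2 of 6 met it, both lower, namely the transcription factor Sox6 and the cartilage matrix protein Comp. In the aminoacyl-tRNA synthetase list 2 of 14 met it, both higher, namely Kars and Yars, and in the AP-1 and immediate early list 2 of 15, both higher, namely Egr3 and Ier2. The proteasome list had 2 higher, Psma4 and Psmd7, and Psma2 lower. In the blood and macrophage list Fcer1g met it and was lower in old cells, in a region that touched more than 1 gene. The median log2 fold change was 0.13 in the actin list, -0.24 in the chondrogenic list, 0.02 in the oxidative phosphorylation list, 0.00 in the ribosomal list, 0.05 in the matrix list and 0.02 over all genes with a member. The genes named in this paragraph were chosen after their values were seen, and none passed after adjustment.

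The depth limits these comparisons. Spearman correlations of density between libraries over the 6523 members were 0.54 to 0.70 within an age and 0.50 to 0.65 between the ages. A region with 3 reads, the floor used here, had a signal of 1.08 to 2.18, and 110 members were at or under 3 reads in old replicate 2 against 9 in young replicate 1.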

How the data were processed

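Signal tables of H3K27ac and H3K27me3 CUT&RUN regions, deposited by the authors, were used for 12 libraries of cultured mouse MSCs in 4 groups of 3. Per the submitters' processing notes, Bowtie2 and Picard were used with mm10 (GRCm38). The caller was not given in the sources used here. The signal deposited by the authors is the RPKM that the reads of a region would have over a fixed 0.5 kb, and was not divided by region length. Whole reads (tolerance 0.01) were recovered for 100% of values. The number of per-sample columns not used was 0.

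Regions were classed with transcript starts of protein-coding transcripts in the GENCODE vM21 basic set. GC content was read from the RefSeq GRCm38 genome, and promoter windows and motifs from RefSeq. After median-of-ratios scaling, log2(signal + 0.5) was modelled in limma 3.58.1 (trend, robust, two-sided, all regions, no filter, Benjamini-Hochberg adjustment). edgeR 4.0.16 and DESeq2 1.42.0 on whole reads were alternatives. For per-sample values, 4 exact permutation tests (two-sided) were run in SciPy 1.17.1. The statistical script was tested on simulated data. Replicates of an age differed by more than sampling noise (chi-square per degree of freedom 1.12 to 1.41).

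Named regions were the called members or, as fewer than 5 were called in a direction, the 8 per direction with the smallest p and no overlap of the ages, then the 5 densest and 3 least dense members, listed genes and the 2 members of highest signal per list. The members, the 26 gene lists and the rules were chosen with earlier results of these data known. A publication supplied with the series does not report these libraries. H3K27me3 levels and yeast DNA were not analysed here, and 1 of the 5 densest members and 1 listed gene are not reported here.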

Additional observations from a re-analysis of the deposited data

How the results depend on the processing

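The number of members called between the ages was 0 in the reported fit and 0 with TMM scaling, a pseudocount of 0.1, limma without trend and robust moderation, DESeq2 and each of the 5 other definitions of a member. The other definitions used the reported fit. Those with a window of 0.5 kb, a length limit of 20 kb or no H3K27me3 within 5 kb only took members out, so their count could only be 0. On the signal as deposited 9 of the 6523 members were called, beside 105 of all 31617 regions. The number was 7 with edgeR, beside 96 of all regions, and 1 with a pseudocount of 1, beside 45. It was 1 with the lowest-signal regions left out, beside 33 of the 23712 regions kept. When 1 replicate was left out it was 0 to 3, beside 2 to 45 of all regions. The single calls were Mfge8 in both cases, Zfhx4 without young replicate 2, and Abi3bp, Grb14 and Mfge8 without old replicate 1. In the 16 named regions near the threshold, 0 of 239 alternative values changed direction and 18 passed the threshold. These regions were chosen for no overlap of the ages and a small p. The lack of reversals was therefore largely fixed in advance and is no support for them. The median log2 fold change of members was -0.10 and the share higher in old cells 30.5% on the signal as deposited, and across replicates left out they ran from -0.0067 (without young replicate 3) to 0.039 and from 48.6% (the same replicate) to 57.3%. The reversals on the signal as deposited follow from omitting the scaling, and the cause of the others was not tested.

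The difference between the ages against distal regions reversed to 0.0395 with means and to 0.0226 with a length limit of 20 kb, and ran from -0.0626 (without young replicate 3) to 0.0255 (without young replicate 2) across replicates left out. That against promoters with both marks ran from -0.0191 (without old replicate 1) to 0.0103 (without old replicate 3), and was -0.0423 (exact permutation p = 0.10, the smallest possible) against -0.0060 when gene starts replaced transcript starts. That of the share of signal ran from -0.196 (without young replicate 3) to 0.360 (without old replicate 1) percentage points, reversing to -0.0487 with a limit of 20 kb. The GC difference kept its sign in all 14 alternatives, from 0.04 to 0.08. With the replicate number as a replicate block, 5 members were called (4 higher and 1 lower in old cells), beside 81 of all 31617 regions. The 4 differences of per-sample values are unaltered by construction. Deviations of same-numbered samples correlated at 0.07, 0.01 and -0.06, so the numbers were not taken to pair the samples.

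Depth limits narrow members most, with a median of 16.8 reads per library in the narrowest group. The shallowest library held a median of 29 reads per member, and 3 samples per age cannot give an exact permutation p below 0.10.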
